A study of Mus musculus with 6 samples.

Results

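The genes described here are the 8 Smad signal transducers and the 2 Smurf ubiquitin ligases of the mouse. They were chosen by name, by looking up the Ensembl identifiers of the table in the GENCODE annotation of mm9, and all 10 were found among the 18810 genes listed. Expression was measured by RNA-seq in atrioventricular canal regions, dissected with the mitral, tricuspid and aortic valves, from C57BL/6 embryos at embryonic day 15.5. There were 3 Scx-/- embryos, which carry the null allele of the basic helix-loop-helix factor Scleraxis throughout the body, and 3 Scx+/+ littermates, with 1 library for each. The deletion is therefore not limited to valve cells, and the dissected region holds several cell types. Values are RPKM, reads per kilobase of exon scaled to library depth, which allow levels of different genes to be compared, and fold changes are on the log2(RPKM + 0.1) scale, Scx-/- over Scx+/+, which understates the change of low genes.

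Ligands of the TGF-beta superfamily bind receptor kinases that phosphorylate the receptor-regulated Smads (R-Smads). BMP receptors use Smad1, Smad5 and Smad9, whereas TGF-beta and activin receptors use Smad2 and Smad3, and both sets enter the nucleus with the common partner Smad4. Smad6 and Smad7 inhibit the pathway, the Smurf ligases mark Smads and receptors for degradation, and in the embryonic heart these signals act in endocardial cushion formation and in the growth of the valves.

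For the targeted gene Scx, taken whole, the Scx-/- libraries gave 33.6, 18.6 and 82.9 RPKM in the order of their replicate numbers, and the Scx+/+ libraries gave 29.5, 58.3 and 26.0 RPKM. Values are listed in that order throughout. The genotypes overlapped, and since the table holds no separate value for the deleted part of the gene, these levels do not check the labels. Bop1, which overlaps Scx on the opposite strand without sharing exon bases, was 7.30 to 15.6 RPKM.

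The library depth recovered from the values was 46429970 to 68571020 reads. Scx-/- replicate 3 and Scx+/+ replicate 2 stood apart from the other 4 libraries. Their deviations from the mean of their own genotype were correlated at 0.32 across the 13827 genes that averaged 1 RPKM or more, the highest of the 9 pairings of libraries between genotypes; genes are not independent replicates. Hbb-y, an embryonic beta-like globin, was 1.16 and 1.99 RPKM in them and 49.6 to 125 RPKM in the others. The 13 cardiomyocyte markers summed to 30008 and 33544 RPKM in the same libraries and to 18817 to 25544 RPKM in the others. The most abundant gene of the list was Myl2, a ventricular myosin light chain, at a mean of 8453 RPKM, so that myocardial RNA was abundant in every library. The RPKM of all genes also summed to more in the same libraries, at 1240390 and 2295480 against 820019 to 1034590. The marker sums therefore do not show a larger myocardial share there. Not every marker followed the sum, and Ttn was lowest in Scx+/+ replicate 2, at 92.4 RPKM against 152 to 200 RPKM elsewhere. Scx+/+ replicate 2 also stood apart alone, with 2252 genes at the fill-in value for low counts against 1088 to 1465 elsewhere, and 56.9% of its summed RPKM in its 10 highest genes against 30.7% to 43.9%. Replicate 2 of each genotype also differed by sex, with 4 Y-linked genes summing to 0.484 and 0.380 RPKM against 94.9 to 125 RPKM elsewhere, and Xist, the RNA of the inactive X chromosome, at 21.7 and 12.7 RPKM against the fill-in value elsewhere. Among the 10 Smad and Smurf genes, 7 had their lowest value in Scx-/- replicate 3 or Scx+/+ replicate 2, and 0 their highest.

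No Smad or Smurf gene differed between the genotypes at the threshold of the study. In limma, 0 of the 10 genes had an unadjusted p below 0.05, beside 731 of all 18810 genes (3.89%), and a test with each gene's own spread also called 0 of the 10, beside 865 genes (4.6%). After Benjamini-Hochberg adjustment limma called 0 of 18810 genes (0%). The libraries of the genotypes overlapped for all 10 genes, where 1787 genes of the table (9.5%) did not overlap. Without Scx+/+ replicate 2, the count over all genes was 1549 at an unadjusted p below 0.05, and it was 1587 without both libraries that stood apart, an alternative chosen after seeing the data, still with 0 of the 10 genes. The p-values rest on the spread between these 6 embryos, which limma moderates toward that of genes at a similar level. By exact permutation, a comparison of 3 against 3 gives 0.1 at the lowest. In such bulk samples, fewer cells of a type and less RNA per cell cannot be told apart.

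The log2 fold changes of the 10 genes ran from -0.19 to 0.20 with a median of 0.03, and 6 were above 0. The median over all genes was 0.10, with 63.8% of them above 0, so that 3 of the 10 genes lay above the median of all genes and 7 below it. When the median of each library was set to 0, and also after quantile normalization, 3 of the 10 genes were above 0, and Smad1, Smad3 and Smurf1 changed sign under both. Across the 10 genes, the 95% intervals of limma lay within folds of 0.427 and 1.80. Both of these limits belong to Smad9, the gene with the fewest reads.

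**Figure D1:**
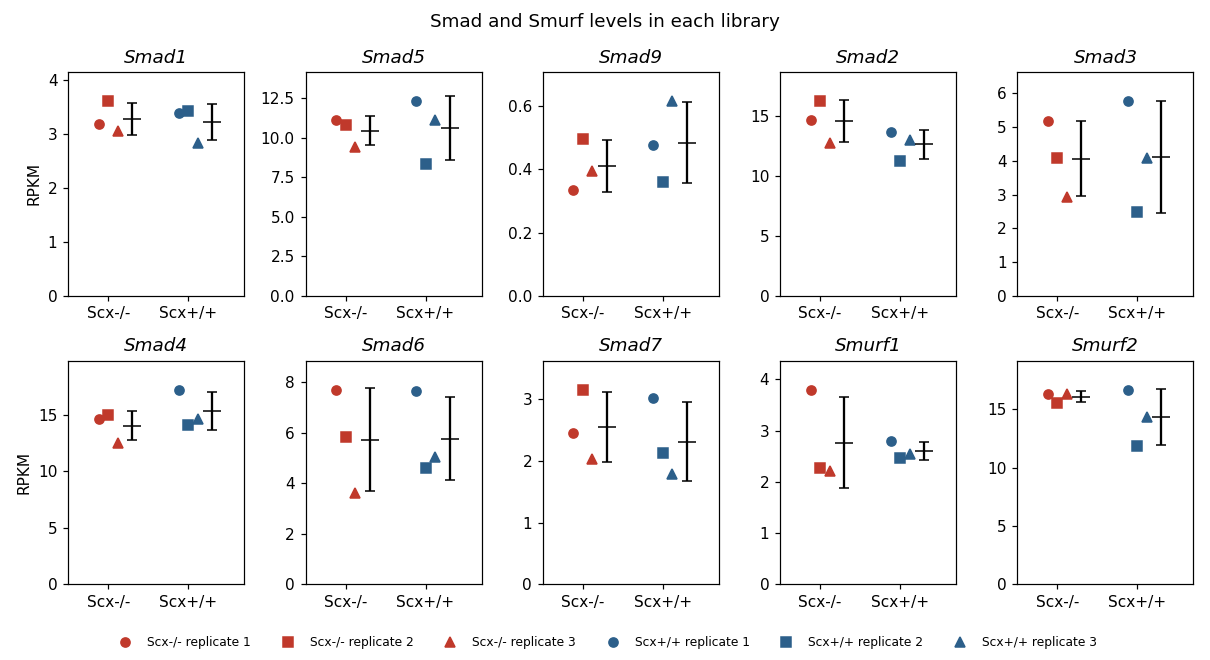
RPKM of each Smad and Smurf gene (y axes, linear, each starting at 0 and scaled to its gene) in the 3 Scx-/- libraries (red) and the 3 Scx+/+ libraries (blue), with symbols for replicates 1 to 3 and bars for mean ± SD. The genotypes overlap for all 10 genes, and Smad2, Smad3, Smad4, Smad5 and Smad6 have their 2 lowest values in Scx-/- replicate 3 and Scx+/+ replicate 2.

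Of the R-Smads used by BMP receptors, Smad5 was the most abundant. It stood at 11.1, 10.8 and 9.40 RPKM in Scx-/- embryos, compared with 12.3, 8.38 and 11.1 RPKM in control embryos. Its lowest library was Scx+/+ replicate 2 and its highest Scx+/+ replicate 1, so that the Scx-/- values lay inside the range of the controls. The log2 fold change was -0.01 (95% interval -0.47 to 0.45 in limma), and 2886 to 5653 reads stood behind each value.

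Smad1, which relays BMP signals alongside Smad5, was 3.18, 3.61 and 3.05 RPKM in Scx-/- and 3.39, 3.43 and 2.84 RPKM in Scx+/+. It varied least of the 10 genes, with 1.27 times as much in the highest library as in the lowest. Its log2 fold change was 0.03 (95% interval -0.49 to 0.55 in limma). Smad9, the Smad also known as Smad8, was 0.335, 0.498 and 0.396 RPKM in Scx-/- and 0.478, 0.361 and 0.617 RPKM in Scx+/+. These values rest on 90 to 227 reads per library, and Smad9 made up 0.565% to 1.16% of the summed RPKM of the 8 Smads. Its log2 fold change of -0.19 had the widest interval of the 10 genes (-1.23 to 0.85 in limma).

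The R-Smads of TGF-beta and activin receptors differed in how steady they were. Smad2 stood at 14.7, 16.3 and 12.7 RPKM in Scx-/- embryos, compared with 13.6, 11.3 and 13.0 RPKM in control embryos. The highest values were those of Scx-/- replicates 1 and 2, but Scx-/- replicate 3 was below Scx+/+ replicates 1 and 3. Scx-/- averaged 14.6 ± 1.76 RPKM (SD, n = 3) and the controls 12.6 ± 1.22 RPKM (SD, n = 3), and the log2 fold change of 0.20 was the highest of the 10 genes. It was not past the threshold (95% interval -0.20 to 0.60; adjusted p = 0.967 in limma, Scx-/- higher on average) and was 0.10 above the median of all genes.

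Smad3, which binds DNA directly, was 5.18, 4.10 and 2.94 RPKM in Scx-/- and 5.77, 2.47 and 4.09 RPKM in Scx+/+. Replicate 1 of each genotype was high and the libraries that stood apart were low, with 2.34 times as much in the highest library as in the lowest, the widest range of the 10 genes. The SD of its log2 values over the 6 libraries was 0.46, where counting error alone, from 636 to 1921 reads, gives 0.04. Its mean differed little between genotypes, with Scx-/- at 4.07 ± 1.12 RPKM (SD, n = 3) and the controls at 4.11 ± 1.65 RPKM (SD, n = 3), for a log2 fold change of 0.03 (95% interval -0.75 to 0.81 in limma). Without Scx+/+ replicate 2 it was -0.29, without Scx+/+ replicate 1 it was 0.31, and without both libraries that stood apart it was -0.08.

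Smad4, the partner shared by both branches, was 14.6, 15.0 and 12.6 RPKM in Scx-/- and 17.2, 14.2 and 14.7 RPKM in Scx+/+. The highest library was Scx+/+ replicate 1 and the lowest Scx-/- replicate 3, and the other 4 libraries lay close together. The log2 fold change was -0.13 (95% interval -0.52 to 0.26 in limma), or 0.23 below the median of all genes, and its sign was negative under each of the alternatives tried. Smad4 alone made up 24.7% to 30.3% of the summed Smad RPKM.

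Of the inhibitory Smads, Smad6, which acts mainly on the BMP branch, stood at 7.69, 5.84 and 3.63 RPKM in Scx-/- embryos, compared with 7.63, 4.59 and 5.04 RPKM in control embryos. The same 2 libraries as for Smad3 were highest (replicate 1 of each genotype) and the same 2 lowest. The log2 fold change was -0.04 (95% interval -0.75 to 0.68 in limma), and without both libraries that stood apart it was 0.11. The counts recovered for Smad6 were not whole reads, unlike those of the other 9 genes, and its reads are not given. The exon length behind its RPKM may differ from the one used here, which was not tested. Its level relative to other genes carries that uncertainty. A different length would act alike on all libraries, and so not on the comparison between genotypes.

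Smad7, which inhibits both branches and recruits Smurf ligases to receptors, was 2.45, 3.15 and 2.03 RPKM in Scx-/- and 3.02, 2.12 and 1.78 RPKM in Scx+/+. Scx-/- replicate 2 and Scx+/+ replicate 1 were high, and the rest lay between 1.78 and 2.45 RPKM. The log2 fold change was 0.14 (95% interval -0.55 to 0.83 in limma), from 446 to 953 reads per library.

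The promoters of Smad3 and Smad6 are shown because these genes had the widest ranges of the 10. Their 2 highest and 2 lowest libraries were the same, and Smad5 had these too. Start sites from RefSeq (GRCm38.p6) were used for 7 of the 10 genes, in 9 windows. Smad2, Smad4 and Smad7 had no window in the set used here and were not searched. On both strands, the 250 bases upstream of each start were searched for the E-box CANNTG, the letters bound by basic helix-loop-helix factors. They were also searched for the Smad box AGAC or its complement GTCT, and for the GC-rich Smad element GGCGCC. Capitals mark matches, and both windows, read 5′ to 3′ on the minus strand, were found once and without a difference in mm9, at chr9:63605802-63606051 for Smad3 and chr9:63869867-63870116 for Smad6.
Smad3: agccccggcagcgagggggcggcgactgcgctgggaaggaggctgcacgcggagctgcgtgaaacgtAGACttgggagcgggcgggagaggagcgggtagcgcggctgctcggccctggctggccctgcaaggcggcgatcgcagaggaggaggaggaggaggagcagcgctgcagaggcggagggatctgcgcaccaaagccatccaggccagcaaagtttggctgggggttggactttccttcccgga
Smad6: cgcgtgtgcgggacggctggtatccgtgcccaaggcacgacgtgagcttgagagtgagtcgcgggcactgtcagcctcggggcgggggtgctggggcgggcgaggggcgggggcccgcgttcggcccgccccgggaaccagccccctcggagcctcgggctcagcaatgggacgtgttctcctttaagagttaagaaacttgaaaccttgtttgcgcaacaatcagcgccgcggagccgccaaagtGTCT
Each window held 1 Smad box, which began 183 bases before the start in Smad3 and 4 bases before it in Smad6. Neither window held an E-box or the GC-rich element. Over all 32817 RefSeq windows of that length, 82.9% held a Smad box, 66.2% an E-box and 9.59% the GC-rich element, so that a Smad box is common by its letters alone. Among the 7 genes, an E-box was found in Smad5, as CAAGTG, and in Smad9, as CAGGTG, and the GC-rich element in Smad5, Smad9 and Smurf2. A match is a description of the letters and not a binding site.

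The Smurf ligases differed in level. Over the 6 libraries, Smurf2 had the highest mean RPKM of the 10 genes. Smad4 was above it in each Scx+/+ library, and Smad2 in Scx-/- replicate 2. Smurf2 stood at 16.3, 15.5 and 16.3 RPKM in Scx-/- and 16.7, 11.9 and 14.4 RPKM in Scx+/+. The Scx-/- libraries were close together at 16.0 ± 0.470 RPKM (SD, n = 3), whereas Scx+/+, at 14.3 ± 2.39 RPKM (SD, n = 3), included both the highest and the lowest library. The log2 fold change was 0.18 (95% interval -0.23 to 0.59 in limma), and it was 0.05 without Scx+/+ replicate 2. Smurf1, which targets the R-Smads of the BMP branch, was 3.80, 2.28 and 2.22 RPKM in Scx-/- and 2.79, 2.46 and 2.55 RPKM in Scx+/+. Scx-/- replicate 1 was above the other 5 libraries and Scx-/- replicates 2 and 3 below every control, so that the log2 fold change of 0.05 (95% interval -0.60 to 0.69 in limma) became -0.20 without Scx-/- replicate 1.

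**Figure D2:**
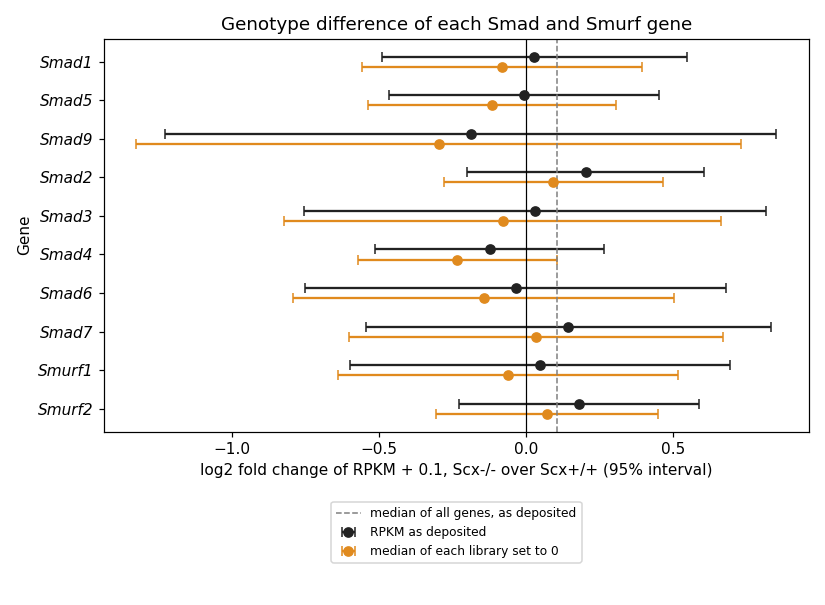
Log2 fold change of RPKM + 0.1, Scx-/- over Scx+/+ (x axis), with the 95% interval of limma for each Smad and Smurf gene (y axis), for RPKM as deposited (black) and with the median of each library set to 0 (orange). Every interval includes 0, and 6 of the 10 genes are above 0 as deposited but 3 of the 10 after centring. The dashed line is the median of all genes as deposited, 0.10.

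For the 9 genes whose reads were recovered, the SD of the log2 values over the 6 libraries was 0.12 to 0.46, where counting error alone gives 0.02 to 0.13. For Smad9 these were 0.27 and 0.13.

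In order of mean RPKM over the 6 libraries, the genes were Smurf2 (15.2), Smad4 (14.7), Smad2 (13.6), Smad5 (10.5), Smad6 (5.73), Smad3 (4.09), Smad1 (3.25), Smurf1 (2.68), Smad7 (2.42) and Smad9 (0.447). Neighbours were compared within libraries by an exact sign-flip permutation test, two-sided, with 64 sign patterns and Benjamini-Hochberg adjustment over the 9 pairs. For 4 pairs the same gene was higher in 6 of 6 libraries, which gives p = 0.0312 in that exact test, the smallest it allows, and an adjusted p of 0.0703. These were Smad2 over Smad5, Smad5 over Smad6, Smad6 over Smad3 and Smad7 over Smad9, with mean log2 differences of 0.37, 0.90, 0.49 and 2.20. No pair passed after adjustment, and when the libraries were not matched 3 pairs did, which were Smad2 over Smad5, Smad5 over Smad6 and Smad7 over Smad9. The order of Smad3, Smad1, Smurf1 and Smad7 was not settled. Nor was that of Smurf2, Smad4 and Smad2 over the 6 libraries, where the split followed genotype. Smurf2 and Smad2 were each above Smad4 in the 3 Scx-/- libraries and below it in the 3 Scx+/+ libraries. This split was seen in the values and was not tested. The log2 ratio of Smad2 to Smad4 was only 0.01 in Scx-/- replicate 1. Both pairs are among the 4 of 45, given below, whose ratios did not overlap, beside 9.5% of all genes taken singly.

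Ratios within a library do not depend on its scaling, and 5 were compared by an exact permutation test. The summed RPKM of the BMP R-Smads over that of the TGF-beta R-Smads was the only one of the 5 whose genotypes did not overlap. As a log2 ratio it stood at -0.44, -0.45 and -0.29 in Scx-/- embryos, compared with -0.26, -0.18 and -0.23 in control embryos. The sum of the 2 TGF-beta R-Smads thus exceeded that of the 3 BMP R-Smads in 6 of 6 libraries. The difference between genotypes in the mean log2 ratio was -0.17 and did not pass (exact permutation test, two-sided, p = 0.1, the smallest it allows, and 0.5 adjusted over the 5 ratios). The margin between the nearest libraries was small, and the sums themselves overlapped, at 12.8 to 14.9 against 12.2 to 16.2 RPKM for the BMP R-Smads and 15.7 to 20.3 against 13.7 to 19.4 RPKM for the TGF-beta R-Smads. The genotypes overlapped when each gene was given equal weight (exact permutation p = 0.5) and when recovered reads replaced RPKM (exact permutation p = 0.2). Without both libraries that stood apart the difference was -0.20.

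Ratios of single genes were then taken for all 45 pairs of the 10 genes, after the values had been seen and so with no test. The genotypes did not overlap for 4 of the 45, about the share of all genes, taken singly, that did not overlap (9.5%). The count is therefore not read as a difference between genotypes, and the pairs share genes. Smad2 over Smad4 was 0.01, 0.12 and 0.02 on the log2 scale in Scx-/- and -0.34, -0.33 and -0.18 in Scx+/+, a difference of 0.33 that is larger than that of the summed branches. The others were Smad4 over Smurf2, Smad9 over Smad2 and Smad5 over Smurf2, with differences of -0.31, -0.43 and -0.19, so that each of the 4 pairs holds Smad2 or Smurf2, the 2 genes with the highest log2 fold changes.

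The other 4 of the 5 ratios differed by less than the spread between libraries. Inhibitory Smads over all R-Smads came to -2.02 ± 0.29 (SD, n = 3) in Scx-/-, against -1.97 ± 0.24 (SD, n = 3) in the controls, on the log2 scale. Smad6 exceeded Smad7 in every library, by 1.79 to 3.14 times in RPKM, within the limit given above for the level of Smad6. Smad2 exceeded Smad3 by 2.36 to 4.56 times, lowest in replicate 1 of both genotypes and highest in the libraries that stood apart. Smurf1 was 0.136 to 0.233 times Smurf2, and Scx-/- replicates 2 and 3 had the lowest of these values. The exact permutation p of these 4 ratios, two-sided, ran from 0.6 to 0.7.

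**Figure D3:**
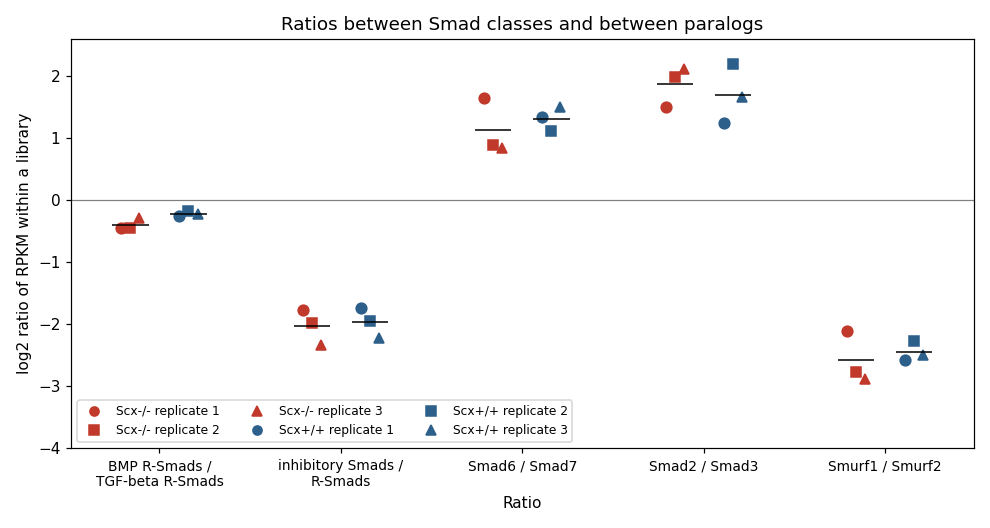
Log2 ratio of RPKM within each library (y axis) for 5 ratios (x axis), in Scx-/- (red) and Scx+/+ (blue), with symbols for replicates 1 to 3 and lines at the means. Of these 5, the genotypes are apart for the ratio of BMP to TGF-beta R-Smads, where they differ by -0.17.

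The ratio of the branches was set beside markers of other cell types. These lists were written with earlier results of these data known, so their directions and calls are a description and not a test. All 7 epicardial markers were above 0, beside 63.8% of all genes, with a median log2 fold change of 0.57 beside 0.10, and they summed to 34.4, 35.7 and 30.7 RPKM in Scx-/- and 25.3, 23.7 and 24.9 RPKM in Scx+/+. Tcf21, an epicardial and fibroblast progenitor factor and the most abundant of the list, was called higher at an unadjusted p below 0.05, as were Upk1b, a uroplakin, and Aldh1a2, a retinoic acid synthesis enzyme. The other 4 were not called and overlapped between genotypes. On the values as deposited, limma called 3.89% of all genes. With the median of each library set to 0, where limma called 646 of all genes (3.43%), the log2 fold changes of Tcf21, Upk1b and Aldh1a2 went from 0.57, 0.61 and 0.60 to 0.46, 0.50 and 0.49 and none passed (unadjusted p of 0.051 to 0.068 in limma). When single libraries were omitted, the calls of Tcf21, Upk1b and Aldh1a2 held in 3, 2 and 1 of 6 fits, and under the other alternatives, centring included, in 8, 9 and 6 of 10. The 4 listed melanocyte markers summed to 3.82, 6.35 and 5.63 RPKM in Scx-/- and 3.06, 3.02 and 2.31 RPKM in Scx+/+. Of them, Dct, the most abundant, and Mlana were called higher and the other 2 were not. Mlana alone did not overlap between genotypes, and it was listed at the fill-in value in each Scx+/+ library. Without it the sums overlapped, at 2.62 RPKM in Scx-/- replicate 1 against 2.96 RPKM in Scx+/+ replicate 1, and so they did without Dct. The call of Mlana held with the median set to 0 and in 6 of 6 fits when single libraries were omitted. With every control at the same fill-in value, omitting a control could not change its log2 fold change, which stayed at 1.75. Its highest library held 39 recovered reads. The call of Dct was lost with the median set to 0, and held in 2 of 6 fits with single libraries omitted and under 6 of 10 other alternatives. No listed gene of these lists was under 0.5 RPKM in every library, and Sox10 and Tyr were not analysed here. The part of these cells in the ratio was not tested.

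In 6 further lists the summed levels overlapped between the genotypes. The 9 markers of valve and cushion mesenchyme, led by Postn, a matricellular protein, summed to 316, 419 and 457 RPKM in Scx-/- and 310, 335 and 269 RPKM in Scx+/+, with 0 called. Their median log2 fold change was 0.32 beside 0.10 over all genes, with 6 above 0 and 3 below. For 3 of the 9, all higher in Scx-/-, the genotypes did not overlap, beside 9.5% of all genes. Endothelial and endocardial markers, led by Pecam1, ran from 128 to 154 RPKM over the 6 libraries, and smooth muscle markers, led by Acta2, from 446 to 672 RPKM, each with 0 called. With the median of each library set to 0, 2 of the 8 endothelial and endocardial markers were called, both lower. Erythroid markers, led by Hba-a1, ran from 6207 to 11088 RPKM with 0 called. Macrophage markers, led by Lyz2, ran from 32.0 to 53.3 RPKM, and Cd68, a lysosomal protein, was called higher, a call that held in 3 of 6 fits when single libraries were omitted. Of the cardiomyocyte markers, Ryr2, the calcium release channel, was called lower, which held in 2 of 6 such fits. Its log2 fold change of -0.46 became -0.22 with the length and GC trend removed, and the call was lost there and without an intensity trend. The call of Cd68 was lost with each gene's own spread, with the replicate block and without both libraries that stood apart.

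The 10 genes were then set in their pathway, in 13 lists of receptors, ligands, cofactors, enzymes and targets. Of their 99 identifiers in the table, 61 were above 0 and 38 below, where 63.8% of all genes were above 0, with a median log2 fold change of 0.08 beside 0.10 over all genes. In limma 1 was called at an unadjusted p below 0.05 (1.01%, beside 3.89% of all genes), and with the median of each library set to 0 a co-activator, called lower, joined it, for 2 of 99 beside 3.43% of all genes. The gene called in both was Bmpr2, the type II BMP receptor, which was 12.7, 11.2 and 8.92 RPKM in Scx-/- and 16.5, 12.2 and 24.7 RPKM in Scx+/+. It was called lower, with a log2 fold change of -0.65 (95% interval -1.26 to -0.04; adjusted p = 0.967 in limma), although Scx-/- replicate 1 was above Scx+/+ replicate 2. With each library left out in turn its log2 fold change ran from -0.89 to -0.39, and 1 of those 6 fits, without Scx+/+ replicate 2, kept the call. The smallest change was that without Scx+/+ replicate 3. The call was also lost without an intensity trend, with each gene's own spread and with the replicate block (unadjusted p of 0.081, 0.118 and 0.060).

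Upstream of the Smads, 6 of the 11 type I and II receptors were above 0, with a median of 0.16, and Bmpr1a, a type I BMP receptor, was the most abundant at a mean of 35.2 RPKM. Both co-receptors were below 0, with a median of -0.23, and Tgfbr3, or betaglycan, was the more abundant at 4.29 RPKM. Ligands were split 5 to 5 with a median of -0.02. Bmp10, a ligand of the trabecular myocardium, led them at 12.9 RPKM and was lowest in Scx-/- replicate 3, at 4.36 RPKM. Of the extracellular BMP antagonists, 4 of 5 were above 0 with a median of 0.18, led by Fstl1 at a mean of 140 RPKM. Tgfb1, Nog, Chrd and Grem1 were not analysed here.

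Among proteins that act on Smads, anchors and adaptors had a median of 0.05, co-repressors 0.05 and co-activators 0.01. Their most abundant genes were Strap, Snw1 and Kat2b. Smad phosphatases had a median of 0.12, led by Ppp1ca, and import and export factors 0.08, led by Ipo7. The 9 other ubiquitin enzymes had a median of 0.17, led by Skp1a. Foxh1, Runx1 and Runx2 were not analysed here.

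The other HECT ligases of the Nedd4 family, relatives of the Smurfs with the same catalytic domain, had a median of -0.07, with 2 of 6 above 0. Nedd4 itself was 507, 435 and 317 RPKM in Scx-/- and 508, 321 and 444 RPKM in Scx+/+, which in every library was far above Smurf2. It was lowest in the libraries that stood apart, and its log2 fold change was -0.02 (95% interval -0.61 to 0.58 in limma). Hecw1 was not analysed here.

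Target genes of the branches gave 0 calls. BMP-Smad targets were above 0 for 8 of 9 genes, with a median of 0.18. Id2, an inhibitor of helix-loop-helix factors and the most abundant of them, was 33.6, 34.5 and 19.3 RPKM in Scx-/- and 36.0, 15.9 and 24.8 RPKM in Scx+/+, and so was low in the libraries that stood apart. TGF-beta-Smad targets were split 6 to 6 with a median of 0.00, led by Acta2. With the median of each library set to 0, these medians were 0.07 and -0.11. Hamp was not analysed here.

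**Figure D4:**
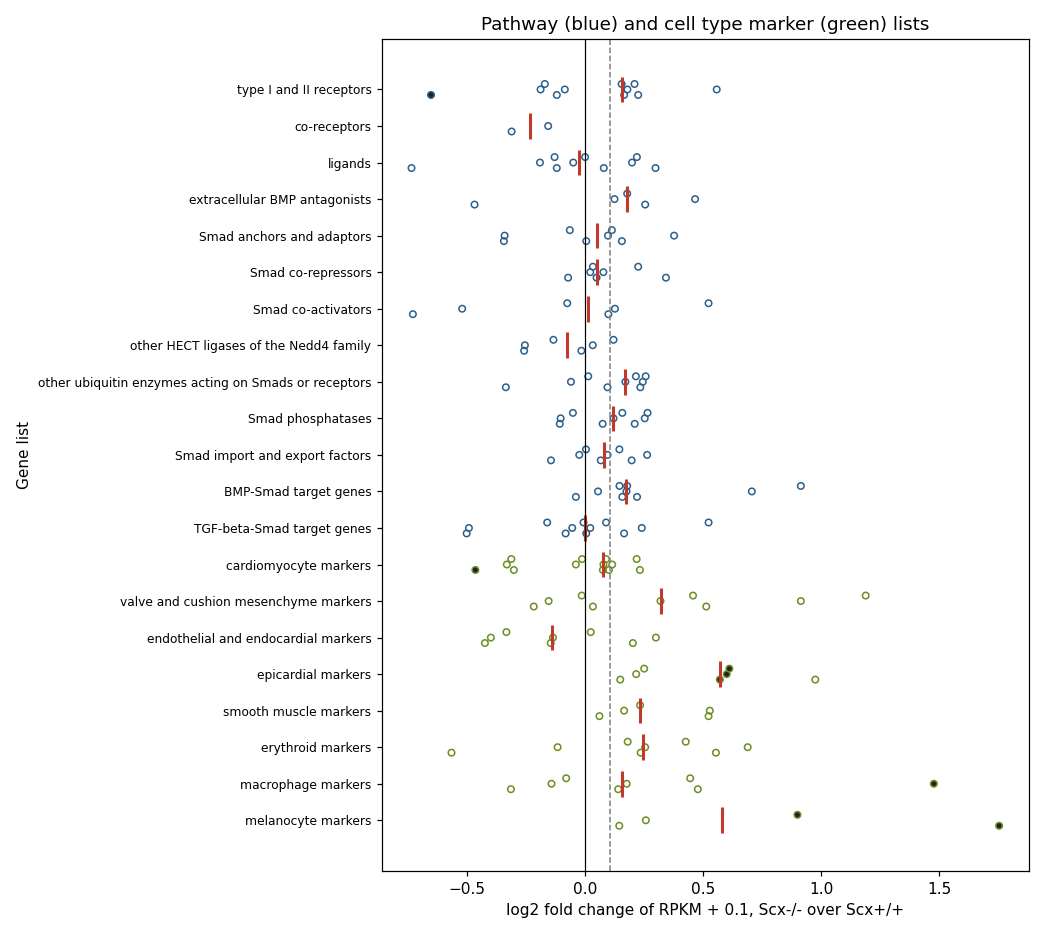
Log2 fold change of RPKM + 0.1, Scx-/- over Scx+/+ (x axis), of each gene (circles) in the pathway lists (blue outline) and cell type marker lists (green outline) named on the y axis. Filled circles mark an unadjusted p below 0.05 in limma, red lines are list medians, and the dashed line is the median of all genes, 0.10. The pathway lists hold 1 filled circle, Bmpr2, and the epicardial, smooth muscle and melanocyte lists lie wholly above 0.

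By a rule of likeness, the gene most like each of the 10 was taken from 7857 other genes averaging 5 RPKM or more, as the highest Pearson correlation of median-centred log2 values over the 6 libraries. The correlations describe 6 libraries that share 2 that stood apart, and a search over so many genes gives high values. Smad3 was most like Arih1 (0.99), Smad6 was most like Mapk3 (0.99) and Smad7 was most like Zfp799 (0.98). For the other R-Smads these genes were Imp3 for Smad1 (0.96), Btf3l4 for Smad2 (0.99), Cnot1 for Smad5 (1.00) and Gtf3c4 for Smad9 (0.99). Smad4 was most like Sin3b (0.97), Smurf1 most like the locus Gm12328 (0.98) and Smurf2 most like Pibf1 (0.98). Mapk3, or Erk1, was 9.66, 7.14 and 4.71 RPKM in Scx-/- and 9.60, 5.44 and 5.95 RPKM in Scx+/+, and so ranked the libraries as Smad6 did.

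The 10 genes lie on 7 chromosomes of mm9, and none overlaps another annotated gene. Smad3 (ENSMUSG00000032402, chromosome 9 from 63494574 to 63605801) and Smad6 (ENSMUSG00000036867, chromosome 9 from 63800953 to 63869866) are neighbours on the minus strand, with 195151 bases and 0 annotated genes between them. Smad4 (ENSMUSG00000024515, from 73798663 to 73863434), Smad7 (ENSMUSG00000025880, from 75527183 to 75555589) and Smad2 (ENSMUSG00000024563, from 76401234 to 76465385) lie within 2.67 Mb of chromosome 18. Smad9 (ENSMUSG00000027796) is on chromosome 3 from 54559504 to 54605179 and Smurf1 (ENSMUSG00000038780) on chromosome 5 from 145637364 to 145726716. Smad1 (ENSMUSG00000031681) is on chromosome 8 from 81862294 to 81923417, Smurf2 (ENSMUSG00000018363) on chromosome 11 from 106681380 to 106782029 and Smad5 (ENSMUSG00000021540) on chromosome 13 from 56804371 to 56843738. Of the chromosome 18 group, Smad2 and Smad4 had the same 2 lowest libraries, Scx-/- replicate 3 and Scx+/+ replicate 2, and Smad7 was lowest in Scx+/+ replicate 3.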

How the data were processed

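By their methods, the authors aligned reads to mm9 with TopHat 1.4.1, counted them over Ensembl exons and deposited RPKM, with low values replaced by a common value of 0.0949 RPKM. Of 18810 identifiers, 18695 were found in the GENCODE annotation. Reads recovered from RPKM and exon length, whole within 0.1 for 98.5% to 98.6% of the values tested, served for depth, the reads and counting errors given and 1 alternative form of the ratios, and no count test across genes was run. All genes were fitted with limma 3.58.1 in R 4.3.3, with moderated variances and an intensity trend, on log2(RPKM + 0.1). The fit was tested on simulated data. Exact permutation tests, promoters and figures used Python 3.11.15, numpy 2.4.6, scipy 1.17.1, pandas 2.3.3 and matplotlib 3.10.9.

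Alternatives were pseudocounts of 0.01 and 1, a mean of at least 1 RPKM, no trend, each gene's own spread, median centring, quantile normalization, a length and GC trend removed, single libraries left out, and the replicate number as a block. Leaving out both libraries that stood apart and the ratios of all pairs of the 10 genes were added after seeing the data. Named are Scx, the 10 genes, list genes called at an unadjusted p below 0.05 on the values as deposited, the most abundant gene of each list and the gene most like each of the 10. Hbb-y and Bop1 were singled out with their values seen. The members and lists were chosen with earlier results of these data known. Exon-level values and proteins were not analysed here. A list of markers of 1 further cell type is not reported here. Whether counting used strand is not given in the sources used here.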

Additional observations from a re-analysis of the deposited data

How the results depend on the processing

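The count of 0 of the 10 genes at an unadjusted p below 0.05 held under every alternative tried, with 9 genes tested where a mean of at least 1 RPKM was required, since Smad9 was below it. Over all genes, the 731 calls became 539 to 1549 when single libraries were left out, and 1587 without both libraries that stood apart. With the replicate number as a replicate block, 573 genes and 0 of the 10 were called. Same-numbered libraries had correlated deviations of 0.09, -0.22 and -0.19, which gives no sign of a pairing by number. The libraries that stood apart carry different numbers and weigh on these correlations, so a pairing cannot be settled from them. With that block the ratio of BMP to TGF-beta R-Smads had an exact p of 0.25, the smallest that 3 pairs allow, in place of 0.1. That of inhibitory Smads to R-Smads also had an exact p of 0.25, in place of 0.7.

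Signs of small differences depended on the processing; the cause was not tested. With the median of each library set to 0, the log2 fold changes of Smad1, Smad3, Smurf1 and Scx were -0.083, -0.080, -0.064 and -0.038, and after quantile normalization -0.038, -0.056, -0.021 and -0.044. With the length and GC trend removed, Smad5 was 0.051 and Smad6 0.014. With each library left out, the ranges were -0.059 to 0.075 for Smad1, -0.17 to 0.11 for Smad5, -0.29 to 0.31 for Smad3, -0.28 to 0.25 for Smad6, -0.019 to 0.35 for Smad7, -0.20 to 0.18 for Smurf1 and -0.50 to 0.57 for Scx. Without both libraries that stood apart, Smad3 was -0.076, Smad6 0.11 and Scx -0.15. Smad2, Smad4, Smad9 and Smurf2 kept their sign under all alternatives.

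The difference in inhibitory Smads over R-Smads, -0.06, was 0.041 as a mean of log2 values, 0.11 without both libraries that stood apart and -0.18 to 0.098 with each library left out. That of Smad6 over Smad7, -0.19, was -0.45 without Scx-/- replicate 1 and -0.044 without Scx-/- replicate 3, its limits with each library left out. That of Smad2 over Smad3 was -0.058 to 0.42 with each library left out. That of Smurf1 over Smurf2 was 0.10 without both and -0.37 to 0.014 with each left out. The ratio of BMP to TGF-beta R-Smads ran from -0.22 to -0.14 and kept its sign. In the order of levels, 0 neighbouring pairs passed with pseudocounts of 0.01 and 1, and 3 when libraries were not matched. With 5 libraries the sign-flip test cannot go below 0.0625, so that test was not repeated with libraries left out.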
